A study of Mus musculus with 48 samples.

Results

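Interferon-induced genes are transcribed when interferon reaches a cell, and 37 of them were followed here across 12 transplanted mouse mammary tumor models. The members were taken by gene symbol, and each was represented by the Affymetrix transcript cluster (the set of probes for 1 transcript) that carries its symbol alone, or by the brightest such cluster where there were several. Of the 37, 33 had such a cluster and are described, out of 19938 genes on the array. Isg15, Gbp2 and Igtp lie only on clusters shared with another gene symbol and have no value of their own, and Ifi44 was not analysed here. RNA from 48 tumors, 4 per model, was hybridized to Mouse Gene 1.0 ST arrays, and the values are log2 signals in which a difference of 1 is a doubling. The profiles come from a separate project on models of metastatic mammary cancer, and the study set their TGF-β transcripts against TGF-β protein in other tumors of the same models. Cells of each line had been placed in the mammary fat pad (number 4) of immunocompetent mice of the matching strain, and tumors were taken at 0.5 to 1.0 cm without pooling. The 4 tumors of a model are therefore separate grafts of the same cells, and p-values measure the spread between grafts.

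BALB/c lines from spontaneous tumors gave 5 of the models (TS/A-E1, F311, EMT-6, D2A1 and 4T1). FVB/N lines from tumors of genetically engineered mice gave another 5 (Met-1, MVT-1, M6, HRM-1 and 6DT1). E0771 is a C57BL/6 line from a spontaneous tumor, and R3T is a 129Sv line from an engineered mouse. No model received a drug or other treatment, the hosts were described as female, and no batch is named in the labels. Strain and origin of the line cannot be told apart within the BALB/c and FVB/N models, and strain and line cannot be told apart for E0771 and R3T. A tumor piece holds cancer cells and host cells together, and in such bulk RNA more cells of a type and more RNA per cell cannot be told apart. Probes can also bind the transcripts of close paralogs, which applies here to Ifit3, Oas1a and Trim30a.

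Type I interferons signal through a receptor shared by all of them to JAK kinases, which activate a complex of STAT proteins and IRF9 that binds the interferon-stimulated response element in promoters. Interferon gamma, a product of T cells and NK cells, uses its own receptor and a STAT dimer that binds the gamma-activated site, and induces IRF1 and the large GTPases most strongly. The products detect foreign nucleic acid, block viral replication and feed back on the pathway, and in tumors they are used as a read-out of interferon exposure of cancer cells and host cells alike.

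Promoter stretches are shown because the members moved together and the response elements are short enough to be read by eye. In the RefSeq promoter table (GRCm38.p6, 250 bases before to 50 after each start), 27 of the 37 member genes had an entry. The core of the interferon-stimulated response element (GAAA, any 2 bases and GAAA again), searched on both strands, was present in 16 of these 27 genes (59.3%) and in 3.99% of all 27025 genes in the table. The core TTCNNNGAA of the gamma-activated site, which reads the same on both strands, was present in 7 of 27 (25.9%) and in 9.55% of all genes, and 4 of the 27 genes held both cores in 1 promoter. Overlapping matches of the same core were counted, and a match is a description of the letters and not a site of binding. The stretches below run 5′ to 3′ on the strand of the gene, with the response-element core or its reverse complement in capitals for all genes except Irf1, where the capitals mark TTCNNNGAA.
Ifit1: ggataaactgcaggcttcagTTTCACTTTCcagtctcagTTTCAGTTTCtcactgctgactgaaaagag
Ifit3: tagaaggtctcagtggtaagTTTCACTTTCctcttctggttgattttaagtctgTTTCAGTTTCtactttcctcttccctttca
Rsad2: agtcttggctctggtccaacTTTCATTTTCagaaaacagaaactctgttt
Stat2: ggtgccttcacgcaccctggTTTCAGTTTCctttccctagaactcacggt
Irgm1: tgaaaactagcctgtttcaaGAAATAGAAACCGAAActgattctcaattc
Gbp3: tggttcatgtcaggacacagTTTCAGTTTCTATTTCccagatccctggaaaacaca
Oas1a: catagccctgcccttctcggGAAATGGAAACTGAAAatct
Oas3: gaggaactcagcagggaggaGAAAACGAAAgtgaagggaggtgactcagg
Irf1: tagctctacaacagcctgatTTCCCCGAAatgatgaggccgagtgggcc
The Ifit1 stretch is chr19:34640765-34640833 on the plus strand, with 2 matches of which the outer begins 104 bases before the start. The Ifit3 stretch is chr19:34583353-34583436 on the plus strand and also holds 2 matches, the outer at 156 bases. Rsad2 (chr12:26456543-26456592, minus strand) and Stat2 (chr10:128270256-128270305, plus strand) hold 1 match each, at 120 and 222 bases. In Irgm1 (chr11:48871421-48871470, minus strand), Gbp3 (chr3:142559979-142560034, plus strand) and Oas1a (chr5:120907526-120907565, minus strand) 2 matches overlap, beginning 30, 45 and 20 bases before the start. Oas3 (chr5:120777705-120777754, minus strand) holds 1 match at 75 bases, and the Irf1 match (chr11:53769904-53769952, plus strand) begins 90 bases before the start. Among the 23 measured members with an entry, the 13 with the response-element core had a median difference of -1.06 in 6DT1 tumors and 1.09 in E0771 tumors from the other 11 models, and the 10 without it had -1.05 and 0.89. No test was made of these medians.

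Every measured member varied from model to model. In limma's F-test over all 12, 33 of 33 passed at an adjusted p under 0.05, against 70.4% of all genes, with adjusted p from 1.0e-27 (Ifi44l) to 3.2e-05 (Oas2). The members stood out more by size than by count: the range of the 12 model means had a median of 2.06 over the members and 0.68 over all genes, and the share of variance lying between models had a median of 83.3% over the members and 62.4% over all genes. Mean log2 signals of the members over the 48 tumors ran from 6.62 (Mx2) to 11.37 (Oasl2). By these means 33 of 33 lay above 6.14, the limit under which the dimmest 30% of genes fall. Single models went under it: Ifi44l in the FVB/N models and E0771 (means from 5.52 to 5.77), and Mx2 in 6DT1 (5.67) and TS/A-E1 (6.13).

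As a summary, a score was taken for each tumor by centring each of the 33 members on its average across the 48 tumors and averaging the centred log2 signals. It is a description and was not tested. E0771 tumors were highest, at 0.84, 0.90, 0.93 and 0.97, and 6DT1 tumors lowest, at -0.69, -1.31, -1.21 and -0.90. The means were -1.03 in 6DT1, -0.69 in HRM-1, -0.39 in M6, -0.33 in Met-1, -0.19 in D2A1, -0.17 in MVT-1, 0.07 in TS/A-E1, 0.24 in 4T1, 0.46 in F311, 0.49 in R3T, 0.63 in EMT-6 and 0.91 in E0771. The outer means differed by 1.94, or 3.84-fold, against a pooled SD within models of 0.245, and 87.0% of its variance lay between models. Neighbours in this order were not separated: tumors of the lower model overlapped those of the higher in 10 of 11 neighbouring pairs, the exception being EMT-6 (highest tumor 0.75) and E0771 (lowest tumor 0.84).

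**Figure D1:**
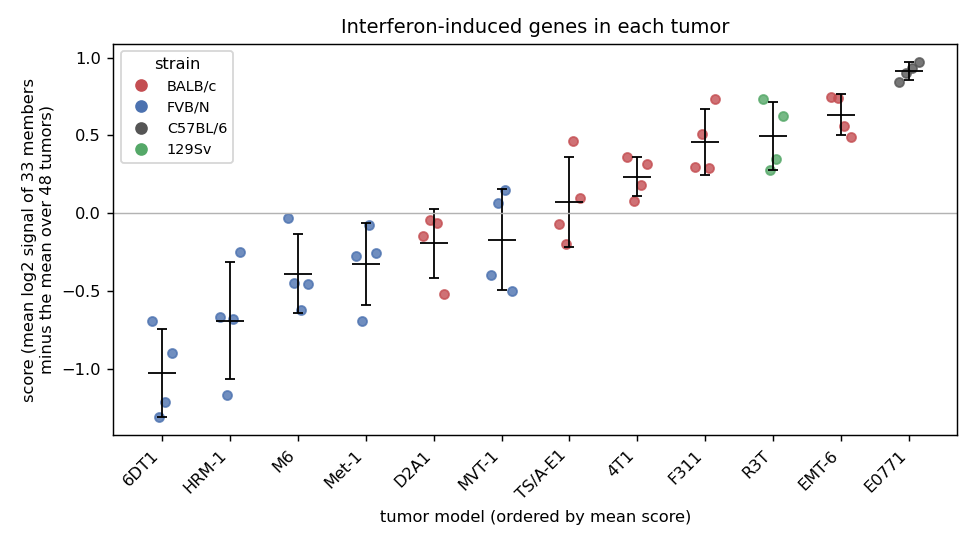
Score of the 33 interferon-induced genes (y axis, mean of centred log2 signals) in each tumor (points, colored by strain) of the 12 models (x axis), with the mean and SD of 4 tumors as a bar. Model means rise from -1.03 in 6DT1 to 0.91 in E0771, and the E0771 tumors lie above all tumors of the neighbouring EMT-6.

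Most members followed this order, but not all. E0771 had the highest mean of 22 members and 6DT1 the lowest of 23. F311 was highest for 4 members, EMT-6, R3T and TS/A-E1 for 2 each and M6 for 1. HRM-1 was lowest for 4 members, Met-1 for 3, M6 for 2 and TS/A-E1 for 1.

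**Figure D2:**
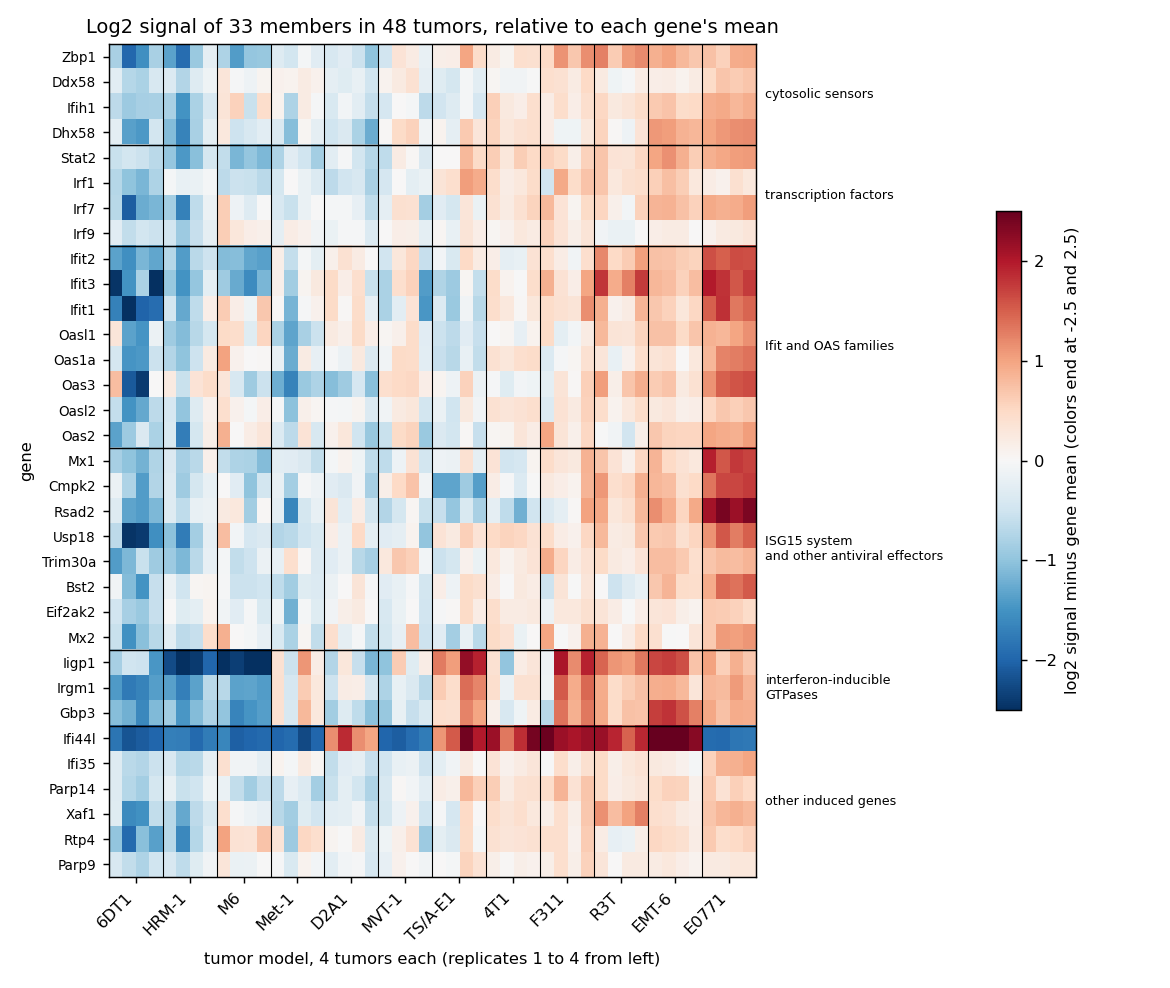
Log2 signal of each of the 33 members (rows, grouped by role) in each of the 48 tumors (columns, 4 per model, models ordered by score), relative to the gene's mean, with blue for lower and red for higher. The E0771 columns are red except for Ifi44l, the 6DT1 columns are mostly blue, and the GTPase and Ifi44l rows depart from the rest.

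Each model was compared with the mean of the other 11 in the same limma fit. In 6DT1 tumors 33 of 33 members were lower, against 19.9% of all genes, with a median difference of -1.03, or 2.04-fold. In E0771 tumors 31 members were higher (19.8% of all genes), with a median difference over the members of 0.98, or 1.97-fold, and 1 was lower (17.8% of all genes). That 1 was Ifi44l, and Irf1 was not called. In HRM-1 tumors 27 of 33 members were lower (10.1% of all genes), and the 6 not called were Bst2, Eif2ak2, Irf1, Mx2, Oas3 and Rsad2. Higher members were called in EMT-6 (21 of 33, against 11.3% of all genes), R3T (18, against 13.2%) and F311 (15, against 7.79%). In M6, 14 members were lower (17.7% of all genes) and 2, Irf9 and Rtp4, were higher (18.9%). In Met-1, 11 were lower (17.2%), and in D2A1 10 were lower (14.1%) and 1, Ifi44l, was higher (13.4%). In TS/A-E1, 6 were higher (9.62%) and 5 lower (6.57%), in 4T1 6 were higher (11.8%) and 1 lower (12.8%), and in MVT-1 1 was higher (11.6%) and 4 were lower (8.97%). In these last 3 models at most 6 of 33 members were called in a single direction.

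The smaller counts depended on single tumors. Members called in either direction numbered 7 in 4T1, and 3, 3, 4, 11 and 11 without 4T1 replicate 1, 3 or 4, 6DT1 replicate 1 or HRM-1 replicate 4. They numbered 11 in D2A1 and 7 without its replicate 4, 15 in F311 and 8 without its replicate 4, 18 in R3T and 10 without its replicate 1, 11 in TS/A-E1 and 7 without its replicate 4, and 5 in MVT-1 and 2, 3 and 2 without its replicates 1, 3 or 4. By direction, the 2 higher members in M6 became 0 without its replicate 1 (Irf9 at an adjusted p of 0.081 and Rtp4 at 0.062 by limma) and 4 without its replicate 3. The 5 lower members in TS/A-E1 became 2, 1 and 1 without its replicates 1, 2 or 4, and the 1 higher member in MVT-1, Trim30a, was lost without replicate 1, 2 or 3 (adjusted p up to 0.24). Lower members in MVT-1 fell from 4 to 2 and 1 without its replicates 1 or 4, and in D2A1 from 10 to 6 without its replicate 4. Tumors with a score of adipocyte or B cell markers above 2.5 were also left out (9 of 48, a choice made after the data were seen), and then 9 members were called in F311 and 11 in MVT-1. Those tumors include replicates 2 and 3 of 6DT1 and replicate 1 of E0771. Without them 30 of 33 members were lower in 6DT1 and 31 were higher in E0771.

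**Figure D3:**
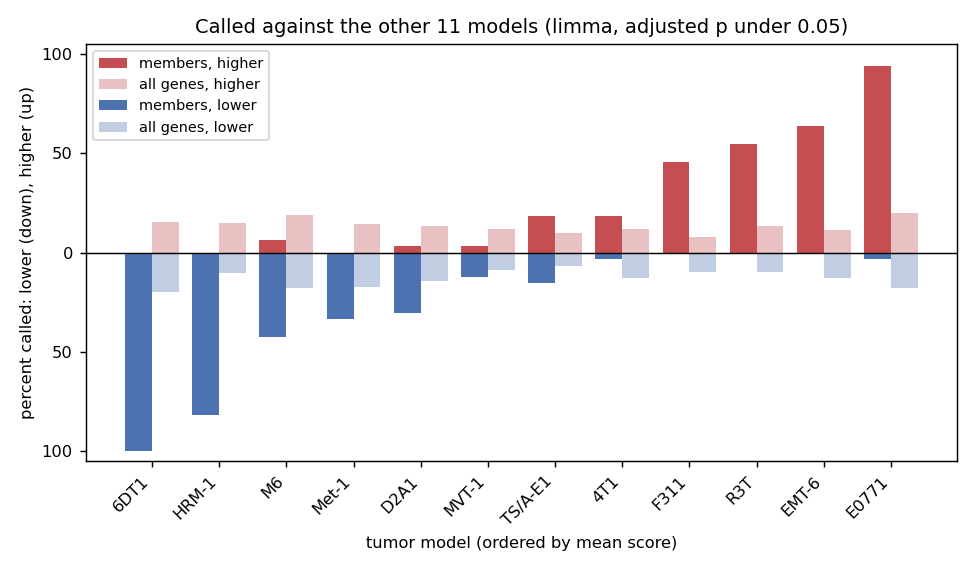
Percent of the 33 members (dark bars) and of all 19938 genes (pale bars) called higher (up, red) or lower (down, blue) in each model against the other 11 by limma at an adjusted p under 0.05. The members exceed all genes most in 6DT1 and HRM-1 among lower calls, at 100.0% and 81.8%, and in E0771 and EMT-6 among higher calls, at 93.9% and 63.6%.

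The cytosolic sensors recognize foreign or misplaced nucleic acid. Ddx58 encodes RIG-I and Ifih1 encodes MDA5, both sensors of double-stranded RNA, Dhx58 encodes their regulator LGP2, and Zbp1 encodes a sensor of Z-form nucleic acid. Zbp1 varied most among models, with 11.24, 10.62, 11.05 and 11.17 in R3T, the highest model, and 9.17, 8.02, 8.44 and 9.17 in 6DT1, the lowest. The R3T tumors lay far above the 6DT1 tumors, but the highest Zbp1 tumor of another model reached 11.15, within the R3T range. Zbp1 means differed by 2.32, or 4.99-fold (adjusted p = 3.5e-12 by limma's F-test). In E0771 4 of 4 sensors were higher (19.8% of all genes), with differences from 0.68 to 1.20. In both 6DT1 (19.9% of all genes) and HRM-1 (10.1%) 4 of 4 were lower. In D2A1 3 of 4 sensors were lower (14.1% of all genes), with Zbp1 not called without replicate 4 (adjusted p = 0.12 by limma). Dhx58 was among them, at 8.59, 8.71, 8.29 and 7.85, a difference of -0.79 (SE 0.19, adjusted p = 0.0012 by limma). Ifih1 was the sensor with the smallest spread in E0771, at 10.49 ± 0.05 (SD, n = 4), and its 4 E0771 tumors lay above the other 44.

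The transcription factors of the pathway are themselves induced. Stat2 and Irf9 encode partners in the complex that binds the response element, Irf7 amplifies type I interferon production, and Irf1 is a primary target of interferon gamma. Stat2 reached 10.81, 10.88, 10.96 and 10.97 in E0771, and 8.94, 8.48, 8.87 and 9.47 in HRM-1, the lowest model. EMT-6 tumors, at up to 11.06, overlapped those of E0771 for Stat2, and M6 (mean 8.95) overlapped HRM-1. The outer Stat2 means differed by 1.97, or 3.91-fold (adjusted p = 1.1e-13 by limma's F-test), and in 4T1 Stat2 was 0.55 higher than in the other models (SE 0.13, adjusted p = 0.0021). Irf1 went its own way. It was highest in TS/A-E1 (11.26 ± 0.36, SD, n = 4) and EMT-6 (11.13 ± 0.21) and 10.82 ± 0.12 in E0771, where it was the only member not called. Irf9 had the smallest range of any member, 0.89, and was higher in M6, at 10.49 ± 0.22 (SD, n = 4), a call lost without replicate 1 of that model, while Stat2 was lower there. Irf7 spanned 2.24 between E0771 and 6DT1, and its 4 E0771 tumors lay above the other 44.

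The Ifit and OAS families encode proteins that bind foreign RNA or make the activator of RNase L, and they gave some of the widest differences. Ifit2 was 10.24, 10.12, 10.25 and 10.23 in E0771 and 7.28, 7.09, 7.49 and 7.33 in 6DT1. No tumor of another model reached the E0771 tumors for Ifit2 (the highest was 9.83), and the lowest tumor outside 6DT1, at 7.24, lay within the 6DT1 range. The Ifit2 means differed by 2.92, or 7.54-fold (adjusted p = 1.1e-14 by limma's F-test). Ifit1 was 7.09, 6.22, 6.79 and 6.89 in 6DT1 and at least 7.33 in the other 44 tumors, a difference of -2.22 (4.67-fold lower, SE 0.22, adjusted p = 1.5e-09). It was the only member whose 4 tumors in 6DT1 all lay below the rest, which held for 0.176% of all genes. Ifit3 was 6.67, 7.62, 8.33 and 6.56 in 6DT1, with an SD of 0.84, and 11.11, 10.93, 10.68 and 10.86 in E0771. Against the other models Ifit3 differed by -1.99 in 6DT1 (SE 0.26, adjusted p = 2.3e-07), 1.93 in E0771 (SE 0.26, adjusted p = 8.4e-08) and 1.56 in R3T (SE 0.26, adjusted p = 1.1e-05). The E0771 and R3T tumors overlapped for Ifit3, with R3T reaching 10.92.

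The oligoadenylate synthetase genes moved the same way. In E0771 8 of 8 Ifit and OAS genes were higher (19.8% of all genes), with a median difference of 1.44. In 6DT1 8 of 8 were lower (19.9% of all genes), with a median of -1.08. Oas3 was uneven within 6DT1, at 9.77, 6.89, 6.60 and 8.99, where replicates 2 and 3 carried the highest adipocyte scores of the series (3.77 and 4.09, against -0.97 and -1.05 in replicates 1 and 4). Ifit3 ran the other way in 6DT1, at 7.62 and 8.33 in replicates 2 and 3 and 6.67 and 6.56 in replicates 1 and 4. The part of adipose tissue in these spreads was not tested. Oas3 was lowest in Met-1, at 7.77, 7.32, 8.07 and 8.23, a difference of -1.25 (SE 0.28, adjusted p = 5.6e-04), and it was lower in D2A1 too, with -0.93 (SE 0.28, adjusted p = 0.010). The D2A1 call was lost without its replicate 4 (adjusted p = 0.052). Oasl1 was also lower in Met-1, with a difference of -0.94 (SE 0.18, adjusted p = 6.1e-05).

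The remaining antiviral effectors include Mx1 and Mx2, GTPases that trap viral nucleocapsids, Rsad2 (viperin), which makes a chain-terminating nucleotide, its neighbour Cmpk2, a nucleotide kinase, Usp18, which removes ISG15 and damps the receptor, Bst2 (tetherin), which holds budding virions, and Eif2ak2 (PKR), which halts translation. Mx1 was 9.25, 8.87, 9.08 and 9.01 in E0771 and at most 8.19 elsewhere, and it was 6.49, 6.30, 6.13 and 6.57 in 6DT1. The Mx1 means differed by 2.68, or 6.40-fold (adjusted p = 8.8e-13 by limma's F-test). Rsad2 was 11.20, 11.50, 11.26 and 11.47 in E0771 and at most 10.28 elsewhere, the largest difference of any member in E0771, 2.44 (5.44-fold, SE 0.21, adjusted p = 4.4e-12). In E0771 12 of 33 members had all 4 tumors above the other 44, against 1.79% of all genes, and these were Ifit1, Ifit2, Mx1, Oas3, Oasl1, Irf7, Rsad2, Usp18, Ifih1, Cmpk2, Bst2 and Ifi35. Usp18 spanned 3.12 between E0771 and 6DT1, Bst2 2.13 and Mx2 1.91.

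Cmpk2 was lowest in another model than most members. It was 10.14, 10.47, 10.48 and 10.55 in E0771 and 7.50, 7.50, 7.91 and 7.42 in TS/A-E1, the lowest of the 12 models, where it differed by -1.33 from the others (2.52-fold lower, SE 0.17, adjusted p = 1.6e-07). In 6DT1 Cmpk2 was 8.67, 8.04, 7.41 and 8.07, overlapping TS/A-E1. The outer Cmpk2 means differed by 2.83, or 7.10-fold (adjusted p = 3.2e-12 by limma's F-test). Rsad2 was called lower in TS/A-E1 as well, though not without replicate 2 or 4 (adjusted p up to 0.076), and in 4T1 it was 8.89, 8.48, 7.92 and 8.62, a difference of -0.70 (SE 0.21, adjusted p = 0.013) that did not pass without replicate 3 (adjusted p = 0.14).

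Of the 3 interferon-inducible GTPases, Iigp1 and Gbp3 had their lowest mean in M6 and Irgm1 in 6DT1. Iigp1, Irgm1 and Gbp3 act at the vacuoles of intracellular parasites and bacteria and are known as strong targets of interferon gamma. Iigp1 was 10.47, 10.21, 11.35 and 11.08 in TS/A-E1 and 6.63, 6.81, 6.33 and 6.02 in M6. HRM-1 tumors, at 6.92, 6.38, 6.77 and 7.18, overlapped those of M6, and the highest Iigp1 tumor outside TS/A-E1 reached 11.20. The outer Iigp1 means differed by 4.33, or 20.1-fold (adjusted p = 2.1e-13 by limma's F-test). Iigp1 differed by -2.96 in M6 (7.80-fold lower, SE 0.28, adjusted p = 5.1e-11) and by -2.57 in HRM-1 (5.94-fold lower, adjusted p = 4.9e-09). It was higher in TS/A-E1 (1.76, adjusted p = 1.5e-05), EMT-6 (1.55, adjusted p = 5.9e-05), F311 (1.37, adjusted p = 5.1e-04) and R3T (1.34, adjusted p = 3.9e-04), and by less in E0771 (0.87, adjusted p = 0.013, and 0.052 without its replicate 1). In 6DT1, where most members were lowest, Iigp1 was lower too, with a difference of -0.90 (adjusted p = 0.012, and 0.088 without its replicate 4). The 6DT1 mean of Iigp1, 8.34, nevertheless lay above those of M6 and HRM-1, and the lowest 6DT1 tumor (7.71) above all tumors of both.

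Gbp3 and Irgm1 ran close to Iigp1. Gbp3 was 11.23, 11.29, 11.08 and 10.74 in EMT-6, the highest model, and 8.50, 7.84, 8.01 and 8.11 in M6, the lowest. The lowest Gbp3 tumor outside M6, at 7.87, and the highest outside EMT-6, at 10.85, each lay within those ranges. The outer Gbp3 means differed by 2.97, or 7.83-fold (adjusted p = 1.4e-12 by limma's F-test). Irgm1 was 10.58, 12.22, 11.60 and 12.13 in F311 and 9.27, 8.92, 9.01 and 9.31 in 6DT1, with outer means 2.51 apart, or 5.69-fold (adjusted p = 8.9e-13). Tumors of HRM-1, from 8.98 to 10.01, overlapped 6DT1 for Irgm1, and the highest tumor outside F311 reached 12.08. The F311 tumors spread widely, and replicate 1, the lowest, also had the highest F311 scores of adipocyte genes (3.62) and B cell genes (5.63). The part of those cells in its value was not tested. Against the other 11 models Gbp3 was higher in EMT-6 (1.74, SE 0.21, adjusted p = 3.0e-08) and lower in M6 (-1.50, SE 0.21, adjusted p = 1.5e-07). Irgm1 was higher in F311 (1.04, SE 0.19, adjusted p = 1.4e-04) and lower in HRM-1 (-1.39, SE 0.19, adjusted p = 7.0e-07). Both were slightly lower in MVT-1, Gbp3 by -0.57 (adjusted p = 0.044) and Irgm1 by -0.54 (adjusted p = 0.042), and neither call held without replicate 1, 3 or 4 of that model (adjusted p from 0.068 to 0.25).

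In M6 the GTPases lay below the Ifit and OAS genes, and in TS/A-E1 above them. The mean of the 3 GTPases relative to their gene means was -1.76 ± 0.25 in M6 (SD, n = 4), while the 8 Ifit and OAS genes were at -0.17 ± 0.30. In TS/A-E1 the GTPases were at 1.10 ± 0.47 and the Ifit and OAS genes at -0.30 ± 0.29. All 4 tumors of M6 had the GTPases below the other set, and all 4 of TS/A-E1 had them above it. HRM-1 leaned the way of M6, with -1.56 ± 0.35 and -0.56 ± 0.49, and by less E0771, with 0.86 ± 0.11 and 1.26 ± 0.07, D2A1 and MVT-1. Met-1 leaned the way of TS/A-E1, with 0.26 ± 0.53 and -0.43 ± 0.43. So did EMT-6, with 1.25 ± 0.34 and 0.51 ± 0.12, F311, with 0.98 ± 0.90 and 0.30 ± 0.22, and by less R3T. Single tumors went against their model: F311 replicate 1 (-0.30 and 0.29), D2A1 replicate 2 (0.05 and -0.01) and MVT-1 replicate 4 (-0.29 and -0.65). In 4T1 the 2 sets were at 0.06 ± 0.39 and 0.16 ± 0.10. In 6DT1 both sets were low alike, at -1.21 ± 0.10 and -1.20 ± 0.35. In M6 3 of 3 GTPases were lower, against 17.7% of all genes. Of the 8 Ifit and OAS genes 2, Ifit2 and Ifit3, were lower, not far above that share. In TS/A-E1 3 of 3 GTPases were higher (9.62% of all genes), with Gbp3 not passing without replicate 3 (adjusted p = 0.056 by limma). Of the 8 Ifit and OAS genes Oas1a and Oasl1 were lower there (6.57% of all genes). Neither call held without replicate 1, 2 or 4 (adjusted p up to 0.14 and 0.10 by limma).

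**Figure D4:**
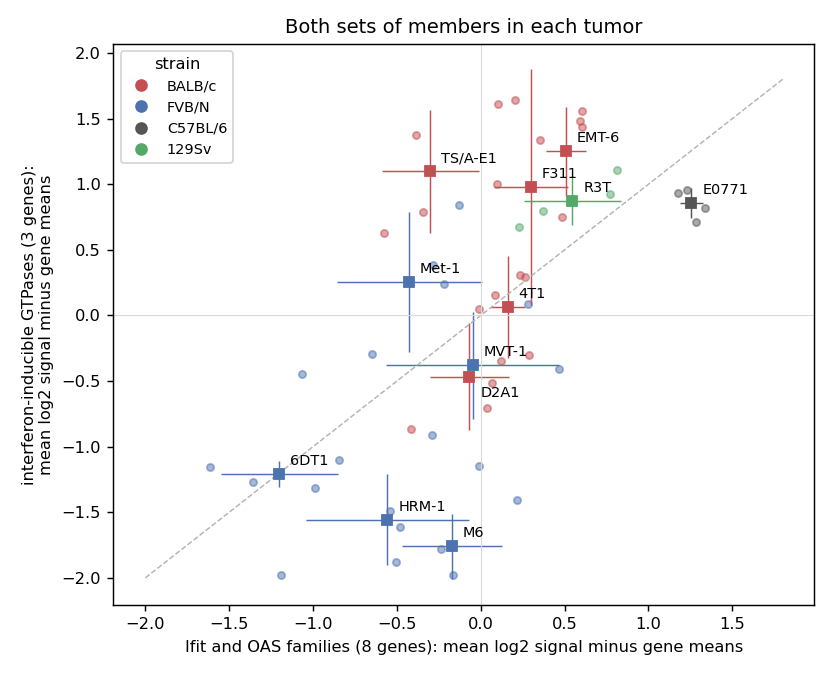
Mean log2 signal relative to the gene means of the 3 GTPases Iigp1, Irgm1 and Gbp3 (y axis) and of the 8 Ifit and OAS genes (x axis), in each tumor (small points) and as mean and SD of 4 tumors per model (squares with bars), colored by strain, with a dashed line where both are equal. M6 lies at -1.76 and -0.17, far below the line, and TS/A-E1 at 1.10 and -0.30, above it.

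Markers of T and NK cells, the known producers of interferon gamma, differed among models as well. Their score, the mean of 10 measured markers centred on the median of all tumors, ran from -1.47 to -1.40 in M6, from -1.22 to -0.18 in HRM-1 and from -0.72 to -0.45 in 6DT1. It ran from 0.36 to 0.98 in E0771, 0.40 to 1.36 in EMT-6, 0.32 to 0.59 in R3T and 0.04 to 0.44 in TS/A-E1. The order was not the same as that of the members: MVT-1 tumors, with GTPases at -0.38 ± 0.41 (SD, n = 4), had T and NK scores from 0.20 to 1.09. The scores ran from -1.30 to -0.32 in D2A1, -0.72 to 0.16 in 4T1, -0.54 to 1.53 in Met-1 and -0.04 to 1.21 in F311. Of the 10 markers, 9 were lower in M6 (17.7% of all genes) and 6 in HRM-1 (10.1%). The 2 lower in 6DT1 were about what the share of all genes (19.9%) would give. Higher markers numbered 7 in E0771 (19.8% of all genes), 5 in EMT-6 (11.3%) and 5 in F311 (7.79%). R3T was split, with 3 higher (13.2%) and 1 lower. The 7 in E0771 include Klrb1c, whose mean there (4.88) lay under 6.14, the limit for dim genes. Nkg7, a granule protein of killer cells, had a mean of 6.16 in M6 and 10.73 in R3T. Over the 48 tumors the T and NK score correlated with the score of the interferon-induced genes with r = 0.63 (rho 0.66), as a description of tumors that share models, and with r = 0.12 once each model's mean had been removed. For macrophage markers r was 0.29 over the 48 tumors and -0.01 within models, and 8 of 9 were lower in M6 (17.7% of all genes). In E0771 these markers were split, with 3 higher (19.8% of all genes) and 2 lower (17.8%), and their mean score was -0.32. For proliferation genes r was 0.35 and within models 0.23, and for luminal markers -0.34 and -0.17. The part of host cells in the differences among models was not tested.

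The last group holds genes with less settled roles. Ifi35 encodes a binding partner of NMI, Parp9 and Parp14 belong to the ADP-ribosyl transferase family, Xaf1 promotes apoptosis, Rtp4 was described as a receptor transporter, and Ifi44l is an induced gene of uncertain function. Ifi35 was 10.10, 10.40, 10.41 and 10.51 in E0771 and 9.20, 8.85, 8.80 and 8.99 in 6DT1, with outer means 1.40 apart, or 2.64-fold (adjusted p = 2.5e-11 by limma's F-test). The 4 E0771 tumors lay above the other 44, and HRM-1 (mean 9.02) overlapped 6DT1. Xaf1 was highest in R3T (10.81 ± 0.21, SD, n = 4) and Rtp4 in M6 (10.72 ± 0.32, a call lost without replicate 1), a model in which most members were low or not called. Parp9 and Parp14 were highest in F311, with ranges of 0.90 and 1.17.

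Ifi44l stood apart from every other member. It was 10.16, 10.09, 10.10 and 9.82 in EMT-6, the highest model, and 5.58, 5.63, 5.31 and 5.58 in Met-1, the lowest. Its values fell into 2 ranges. The 5 BALB/c models and R3T had means from 8.85 (D2A1) to 10.05 (EMT-6), and the 5 FVB/N models and E0771 had means from 5.52 (Met-1) to 5.77 (HRM-1). No tumor lay between 5.93, the highest of the second range (an M6 tumor), and 8.53, the lowest of the first (a D2A1 tumor). All means of the second range lay under 6.14, the limit under which the dimmest 30% of genes fall, so folds against them are less certain. The outer means differed by 4.52, or 23-fold (adjusted p = 1.0e-27 by limma's F-test), and 98.5% of its variance lay between models. E0771, highest for 22 members, was in the low range, at 5.63, 5.62, 5.76 and 5.76, a difference of -2.03 (SE 0.14, adjusted p = 1.0e-14). Against the other 11 models Ifi44l was called in every one of the 12 comparisons, higher in 6 models by 1.41 (D2A1) to 2.71 (EMT-6) and lower in 6, with -1.94 (HRM-1) to -2.22 (Met-1). A strain difference in the level of the transcript and one in the sequence under the probes cannot be told apart in these data.

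**Figure D5:**
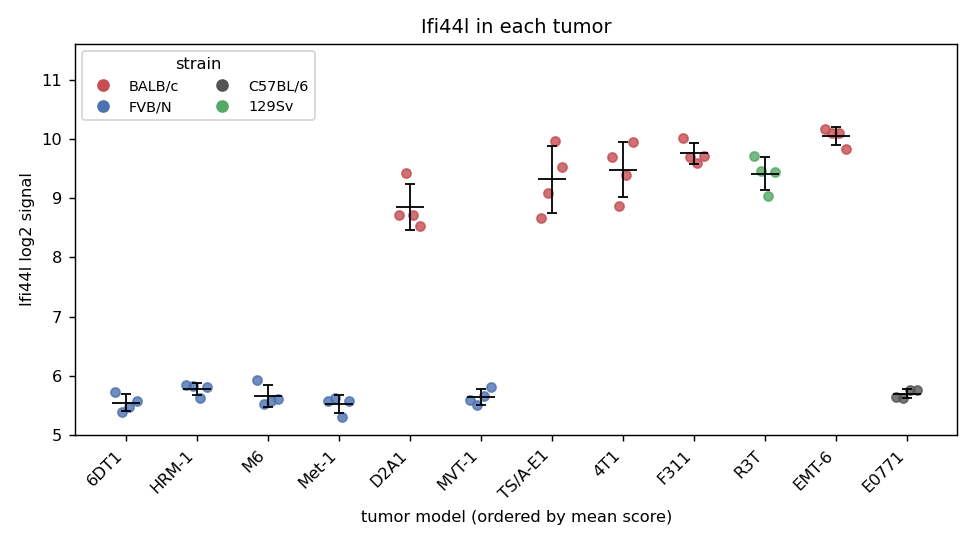
Ifi44l log2 signal (y axis, starting at 5) in each tumor (points, colored by strain) of the 12 models (x axis, ordered by the score of all members), with the mean and SD of 4 tumors as a bar. The BALB/c models and R3T lie between 8.53 and 10.16, and the FVB/N models and E0771 between 5.31 and 5.93.

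BALB/c and FVB/N models were compared with the model as the replicate, 5 against 5. Of the 33 members only Ifi44l was called, with 3.86 higher in BALB/c (SE 0.19, adjusted p = 1.3e-04 by limma), and 0.191% of all genes were called. Model means of Ifi44l were 9.49 ± 0.45 in BALB/c and 5.63 ± 0.10 in FVB/N (SD, n = 5). The direction was shared widely, but the members rose and fell together across tumors (median r of a member with the others 0.83). They are therefore not independent, and the counts that follow are a description that was not tested. The mean was higher in BALB/c for 33 of 33 members, against 42.6% of all genes, with a median difference of 0.62 against -0.01 over all genes. For 17 of 33 members the unadjusted p was under 0.05 with the higher value in BALB/c, against 3.88% of all genes, and for 6 every BALB/c model mean lay above every FVB/N model mean, against 0.833%. These 6 were Bst2, Eif2ak2, Ifi44l, Ifit2, Mx1 and Usp18.

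The members next in order did not pass the adjustment. Eif2ak2 was 9.30 ± 0.08 in BALB/c and 8.78 ± 0.23 in FVB/N, with model means from 9.19 to 9.39 and from 8.41 to 8.998, a difference of 0.52 (SE 0.10, adjusted p = 0.13). Stat2 was 10.28 ± 0.46 and 9.25 ± 0.32, a difference of 1.02 (SE 0.24, adjusted p = 0.21), and the D2A1 mean (9.55) lay below that of MVT-1 (9.72). Bst2 differed by 0.64 (SE 0.15, adjusted p = 0.22), Irgm1 by 1.40 (SE 0.36, adjusted p = 0.27) and Usp18 by 1.10 (SE 0.29, adjusted p = 0.30). In a limma fit over all 40 tumors with the model as a random block, 11 of 33 members were called, against 2.45% of all genes. Among them were Stat2 (adjusted p = 0.0014), Irgm1 (0.0032), Ifit2 (0.0074), Usp18 (0.024) and Eif2ak2 (0.048). That fit used 1 correlation for all genes. The members had more of their variance between models (median 83.3%) than all genes (62.4%), so its p-values can be too small for them. In the comparison of model means without D2A1, Parp14 was called beside Ifi44l (adjusted p = 0.013 by limma, with 0.221% of all genes called). The score of all members was 0.24 ± 0.32 over the BALB/c models and -0.52 ± 0.34 over the FVB/N models (SD, n = 5), and the means of D2A1 (-0.19) and MVT-1 (-0.17) overlapped.

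The members also varied together from tumor to tumor. Pearson's r of a member with the mean of the other members, over the 48 tumors, had a median of 0.83 and ran from 0.46 (Ifi44l) to 0.92 (Irf7), as a description of tumors that share models and arrays. With each model's mean removed the median was 0.75, from 0.37 (Ifi44l) to 0.91 (Dhx58). Trim30a (0.83 and 0.40), Irf1 (0.73 and 0.43) and Iigp1 (0.66 and 0.48) were the others that followed least within models. Of 19905 genes that are not members, 11 (0.055%) correlated with the score at or above the median of the members, and the median over them all was -0.05.

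The non-member genes most like the score were Parp12 (r = 0.91), Adar (0.87), Trim30d, Herc6, Cxcl10 (0.86 each), Ube2l6, Nmi, Gm12250, 4930599N23Rik (0.85 each) and Phf11a (0.84), over 48 tumors. Several are known as interferon-induced themselves, such as Ube2l6, the E2 enzyme for ISG15, Herc6, its E3 ligase in mice, and Cxcl10, a chemokine that attracts T cells. Cxcl10 had a mean of 12.10 in E0771 and 7.81 in 6DT1, with differences from the other 11 models of 2.02 (SE 0.24, adjusted p = 1.1e-08) and -2.66 (SE 0.24, adjusted p = 3.2e-10). Trim30d reached 9.40 in E0771 and was 5.37 in M6. Parp12 spanned less, from 12.03 in E0771 to 10.51 in 6DT1.

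Genes elsewhere in the pathway were taken from lists made by their known roles. Of the interferons themselves, 14 of 17 were measured and 6 differed among models by the F-test, a smaller share than the 70.4% of all genes. Ifng, which encodes interferon gamma, had the widest range, at 8.53 ± 0.39 in E0771 and 6.39 ± 0.20 in 6DT1 (SD, n = 4, adjusted p = 5.3e-11). Ifng was 1.51 higher in E0771 (adjusted p = 2.4e-08), and differed by -0.84 in 6DT1 (adjusted p = 6.7e-04) and by -0.76 in M6 (adjusted p = 0.0012). Ifnb1, the first type I interferon made in many cells, ranged over 0.15 among model means near 5.60 and was not called (adjusted p = 0.47). Ifnz was highest in 4T1 (8.87 ± 0.31) and Ifnk in M6 (4.91 ± 0.10), the other genes of the list with the smallest p.

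Receptors and kinases did not follow the members. All 9 measured of 10 listed differed among models, against 70.4% of all genes. In E0771 6 were lower (17.8% of all genes) and 1 higher (19.8%), and in M6 6 were lower (17.7%) and 1 higher (18.9%). Jak2, a kinase of the interferon gamma receptor, was 11.33 ± 0.12 in 4T1 and 8.88 ± 0.10 in M6 (SD, n = 4, adjusted p = 6.2e-13). Ifnlr1, a receptor chain for type III interferon found on epithelial cells, was highest in M6 (7.50 ± 0.38), and Ifngr2 was highest in R3T (11.88 ± 0.05). In E0771 Ifnlr1 was lower by -0.50 (adjusted p = 3.2e-04) and Jak2 by -0.72 (adjusted p = 5.7e-05).

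Targets of interferon gamma outside the members were mostly low in M6, and 7 of 11 were higher in E0771. Of 12 listed, 11 were measured and 11 differed among models, against 70.4% of all genes. In M6 10 were lower (17.7% of all genes, median difference of the list -1.63). In 6DT1 6 were lower (19.9%, median -0.85), and in E0771 7 were higher (19.8%, median 0.95). Cxcl11 (-0.35), Ciita (-0.24) and Irf8 (-0.08) lay the other way in E0771 and were not called. The highest mean was in E0771 for Cxcl10 and Cd274, and in EMT-6 for Cxcl9, Ido1, Gbp5, Gbp7, Nos2 and Irf8. Calls in EMT-6 were not counted for this list. Gbp5, a GTPase of inflammasome assembly, was 9.89 ± 0.42 in EMT-6 and 5.69 ± 0.15 in M6 (adjusted p = 7.6e-15), and Gbp7 was 12.27 ± 0.30 in EMT-6 and 9.64 ± 0.16 in M6 (adjusted p = 2.8e-14). The part of host cells here too was not tested.

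Genes of nucleic acid sensing and inhibitors of the pathway gave mixed results. The sensing list holds Toll-like receptors, adaptors, kinases, transcription factors and Trim25. Of its genes 11 of 13 were measured and 11 differed among models, against 70.4% of all genes. In E0771 5 were higher (19.8% of all genes) and 1 lower (17.8%), and in M6 8 were lower (17.7%) and 1 higher (18.9%). Mavs, the mitochondrial adaptor of RIG-I and MDA5, was lowest in M6 (9.79 ± 0.13) and highest in R3T (10.58 ± 0.12), Irf5 was lowest in M6 (7.78 ± 0.33), and Myd88, the adaptor of Toll-like receptors, was highest in E0771 (11.29 ± 0.04, SD, n = 4). Of the inhibitors 10 of 10 were measured and differed. In 6DT1 6 were lower (19.9% of all genes) and 1 higher (15.6%), and in E0771 4 were higher (19.8%) and 1 lower (17.8%). Trex1, a nuclease that removes cytosolic DNA, was 0.52 higher in E0771 (adjusted p = 1.1e-08) and differed by -0.42 in 6DT1 (adjusted p = 3.0e-06). Socs1, which blocks JAK kinases, was highest in TS/A-E1 (9.64 ± 0.38), and Samhd1, which depletes nucleotides, was highest in EMT-6 (12.17 ± 0.20).

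Other cell markers also differed between the models at the ends of the order. Markers of luminal epithelium, which define mammary cancer cells of that type, were weak in E0771. There 5 of 6 were lower (17.8% of all genes) and the score ran from -2.96 to -0.51. They were also weak in D2A1, EMT-6 and MVT-1, with mean scores of -1.87, -1.44 and -1.36. Krt18 was 8.10 in E0771 and 12.98 in HRM-1. In 6DT1 5 of 5 proliferation genes were lower (19.9% of all genes), with scores of -0.30, -1.07, -1.69 and 0.01. The 6DT1 tumors with the lowest scores of interferon-induced genes, replicates 2 (-1.31) and 3 (-1.21), were those with high adipocyte scores (3.77 and 4.09), and replicates 1 and 4 stood at -0.69 and -0.90. Leaving out the 9 tumors with high adipocyte or B cell scores kept only replicates 1 and 4 of 6DT1, and 30 of 33 members were lower there, as given above. Within models the adipocyte score correlated with the score of the interferon-induced genes with r = -0.40 over the 48 tumors. For the endothelium score r within models was -0.34. The part of adipose tissue in these scores was not tested.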

How the data were processed

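RNA of 48 mammary tumors (100 ng each) had been amplified and hybridized to 1 array per tumor. The authors deposited log2 signal for 35556 transcript clusters, from 3.49 to 14.12, with upper quartiles of the arrays between 8.89 and 9.06. Which software normalized the arrays, and how, is "not given in the sources used here", and the number of arrays limits the precision. Clusters naming 1 gene (21789) were kept, and the brightest per gene was used, which left 19938 genes. The F-test over the 12 models and each model against the mean of the other 11 used limma 3.58.1 (R 4.3.3), and the strain comparison of BALB/c with FVB/N used model means. A gene was called at a Benjamini-Hochberg adjusted p under 0.05 over all genes. The fits were tested on simulated data. Summaries used Python 3.11.15, numpy 2.4.6 and pandas 2.3.3, and figures matplotlib 3.10.9. Members and lists were chosen with earlier results of these data known. Values in every tumor are given for the 10 members with the smallest F-test p, for up to 3 called members with the largest difference in each model, and for other members that a sentence turns on. Named for strain are the 6 members with the smallest p, named outside the list are the 10 genes most correlated with the score, and named from each pathway list are the 3 with the smallest p. Ifit2, Irf7, Ifih1, Rtp4, Xaf1, Usp18, Parp14, Nkg7 and Krt18 were also named after their values were seen. Alternatives were quantile normalization, the mean of a gene's clusters, no dim genes, a trend and robust prior, a replicate block, joint adjustment, the methods' one-way test, other scores, and fits lacking 1 tumor, 1 replicate number or 1 model.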

Additional observations from a re-analysis of the deposited data

Results flagged for a closer look

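In 132 groups of 4 tumors (the score and the 10 members with the smallest F-test p, in each of 12 models), 9 tumors lay so far from the other 3 of their model that Dixon's ratio passed its critical value, where chance gives about 1 in 20 groups. TS/A-E1 replicate 3 was high for Mx1 (7.70, next 7.18) and Cmpk2 (7.91, next 7.50). 4T1 replicate 2 was low for Iigp1 (8.18, next 9.35) and Irgm1 (10.53, next 11.06). EMT-6 replicate 4 was low for Iigp1 (9.87, next 10.77), and M6 replicate 1 was high for Irgm1 (9.98, next 9.36). Ifi44l was low in HRM-1 replicate 3 (5.62, next 5.81) and Met-1 replicate 3 (5.31, next 5.58), and Ifit2 was low in E0771 replicate 2 (10.12, next 10.23). These values are log2 signals.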

How the results depend on the processing

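Under quantile normalization, the mean of a gene's clusters, the fit without the dimmest 30% of genes, the trend and robust prior and the methods' one-way test, 33 of 33 members passed over the 12 models. Leaving out each tumor in turn, members called in either direction numbered 3 to 11 in 4T1, 31 to 33 in 6DT1, 7 to 13 in D2A1, 30 to 32 in E0771, 17 to 22 in EMT-6, 8 to 16 in F311, 20 to 27 in HRM-1, 14 to 17 in M6, 8 to 13 in Met-1, 2 to 7 in MVT-1, 10 to 20 in R3T and 7 to 14 in TS/A-E1, and the score range was 1.85 to 2.05. MVT-1 had 3 called members instead of 5 under quantile normalization. Without the 9 tumors with high adipocyte or B cell scores, chosen after the data were seen, MVT-1 had 11 and F311 9, with 2 F311 tumors left. Between the strains 11 members instead of 1 were called with the model as a random block, a fit whose p-values can be too small for the members, and 2 without D2A1. The cause was not tested. The score range was 1.73 to 1.96 under the other settings. Of 52 named values under the alternatives, 2639 results kept their call, 9 lost it, 8 gained it and 0 reversed. Replicate numbers gave little sign of pairing the tumors. Deviations of same-numbered tumors of different models correlated at a median of 0.03, and 100 of 264 pairs were over 0.1. For differently numbered tumors the median was 0.003, and 253 of 792 pairs were over 0.1. With a replicate block, called members numbered 6 in 4T1, 14 in F311, 15 in M6 and 17 in R3T, were as given in the other models, and numbered 10 between the strains in the fit with the random block. Signal near the array's floor limits the interferon genes, and Ifi44l in the FVB/N models and E0771.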
